A study of Mus musculus with 103 samples.

Results

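The probe sets described here are those of the Hox cluster genes. They were the probe sets with a single gene symbol beginning with Hox, then a cluster letter from a to d and a number, and 38 of the 22690 probe sets on the array met that rule. They covered 31 protein-coding Hox genes and 1 antisense transcript, Hoxa11os. Cluster a gave 13 probe sets, cluster b 10, cluster c 8 and cluster d 7. Hoxa3, Hoxa4, Hoxa9 and Hoxb4 each had 2 probe sets and Hoxc6 had 3, so the probe sets of such a gene are not independent of each other. A further 3 probe sets carry several Hox symbols and were left out.

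Hox genes encode homeodomain transcription factors that specify position along the body axis. Within a cluster they lie in the order in which they are used, with low paralogue numbers acting early and toward the head and high numbers late and toward the tail. Their proteins bind DNA together with the Pbx and Meis families of cofactors, retinoic acid and Cdx factors help to switch the clusters on, and Trithorax and Polycomb complexes maintain the active and silent states. Adult organs keep part of this positional code.

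The series compared ways of labeling very small amounts of mouse RNA for expression arrays, and each array gave 1 signal per probe set. The tissue set held 16 arrays of a commercial Ambion panel of total RNA, with brain, embryo, heart, kidney, liver, lung, ovary and spleen each labeled once from 1 ug by the Affymetrix one-cycle kit and once from 500 pg by BIIB, the Biogen Idec amplification protocol that the series was built to test. A further 58 arrays held Stratagene Mouse Universal Total RNA, a commercial reference RNA, labeled by one-cycle (1 ug, 4 arrays), by two-cycle, Ovation or RiboAmp HS kits (500 ng, 50 ng, 5 ng, 500 pg and 50 pg, 2 arrays each) or by BIIB (5 ng, 1 ng, 500 pg, 100 pg, 50 pg and 10 pg, 4 arrays each). The lymphocyte set held 18 BIIB arrays of T and B cells, flow sorted from the spleen of 1 normal mouse and combined to 100 cells (12 arrays, 6 ratios, 2 arrays each) or 500 cells (6 arrays, 6 ratios). The labels give no strain, age or sex of the animals, and 11 arrays of RAW267 cultured cells were not used here. Nothing in the labels says that the 2 arrays of a tissue came from separate animals, so the p-values reflect how far these arrays differ among themselves, possibly for technical reasons only.

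Each array was scaled to a common trimmed mean of 2501.24, so a signal of 500 is 20% of the average probe set and is used below as the mark under which a member is called dim. The number of arrays limits the precision. The median over all probe sets ran from 431 to 970.1 on the tissue arrays. Marker genes bore out 6 tissue labels: all 6 markers of heart, of kidney and of lung, 5 of 6 of ovary, 4 of 5 of spleen and 7 of 8 of embryo were highest on both arrays of their own label. Brain and liver went the other way. All 7 measured brain markers were highest on both arrays labelled liver, and all 8 liver markers were highest on both arrays labelled brain, so these are written as the arrays labelled brain and labelled liver throughout. Each tissue was set against the mean of the other 7, so exchanging these labels would leave the results for the remaining 6 tissues as they are.

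Most Hox probe sets were dim in these tissues. Of the 38 members, 14 never reached 500 on any of the 16 arrays, 15 reached it on both arrays of at least 1 tissue, and 23 did so in no tissue. Kidney had the most members at 500 or above on both arrays, with 11: Hoxa5, Hoxa7, both Hoxa9 probe sets, Hoxa10, Hoxb6, a Hoxc6 probe set (1427362_x_at), Hoxc9, Hoxd8, Hoxd9 and Hoxd10. Ovary had 5 (Hoxa5, Hoxa9, Hoxc6, Hoxd8 and Hoxd9), embryo 4 (Hoxa5, Hoxa9, Hoxb5 and Hoxc9) and lung 4 (Hoxa3, Hoxa5, Hoxb4 and Hoxb5). Heart, spleen and the arrays labelled brain and labelled liver had 0. Over all probe sets, 41.8% to 49.7% reached 500 on both arrays of a tissue, so the members were dimmer than the average gene in each of the 8. The 6 members with a mean signal of at least 500 over the tissues were Hoxa9 (2007), Hoxd8 (1342), Hoxa5 (1335), Hoxd9 (775), Hoxb2 (621) and Hoxa7 (529). These means are not compared with each other, since each probe set has its own brightness. In bulk RNA, fewer cells that express a gene and less of its RNA per cell cannot be told apart.

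**Figure D1:**
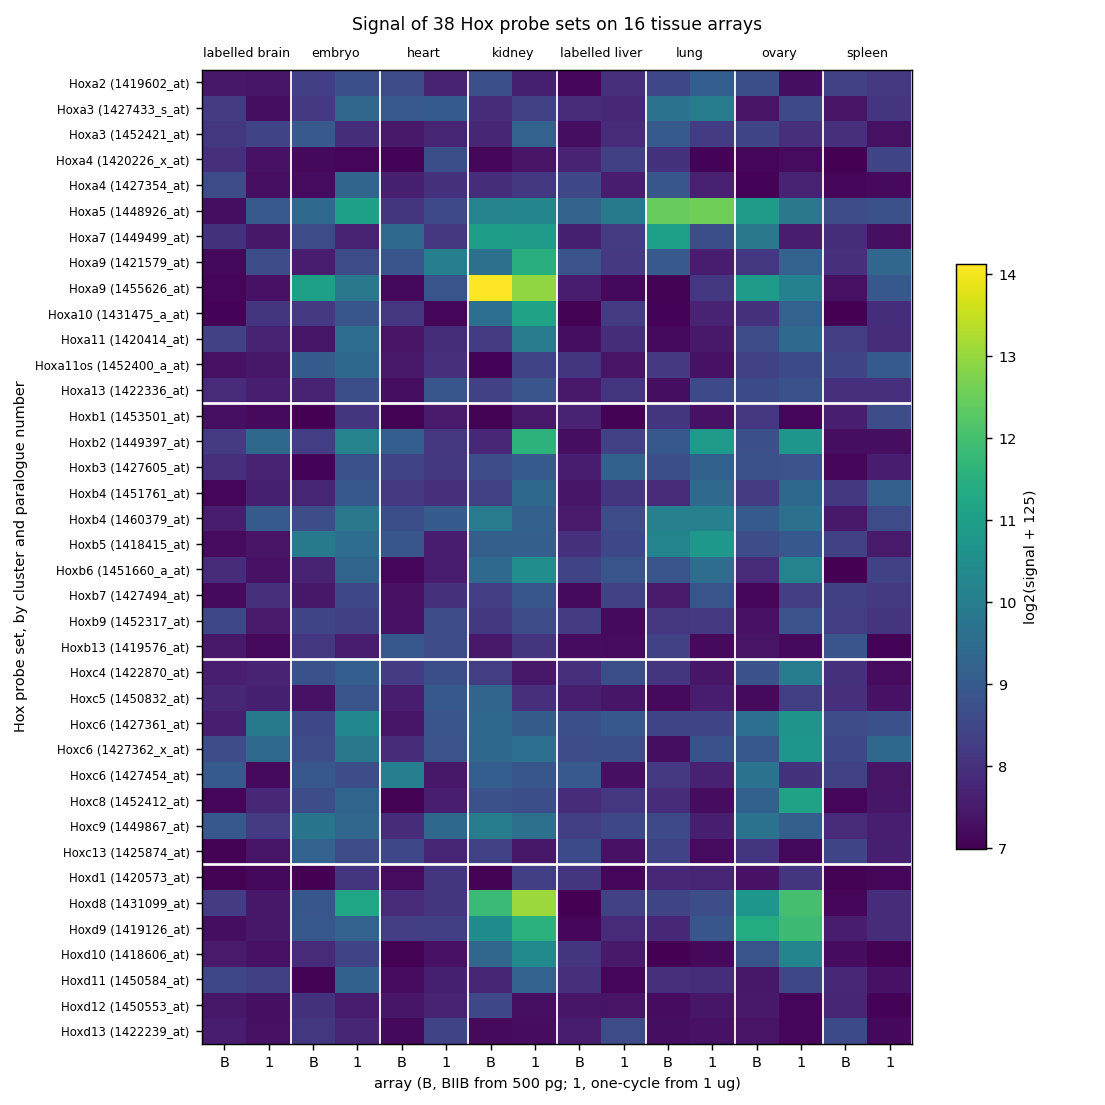
Heat map of log2(signal + 125) for the 38 Hox probe sets, ordered by cluster and paralogue number, on the 16 tissue arrays, with the BIIB (B) and one-cycle (1) array of each tissue side by side. The brightest cells are Hoxa9 and Hoxd8 in kidney and Hoxa5 in lung, while Hoxd1, Hoxd12 and Hoxd13 stayed under 500 on every array.

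In kidney, 7 Hox genes rose: Hoxa7, Hoxa9 and Hoxa10 of cluster a, Hoxb6 of cluster b, and Hoxd8, Hoxd9 and Hoxd10 of cluster d. The limma fit, with protocol as a covariate, called 8 of 38 members higher and 0 lower than the mean of the other tissues (8.09% of all probe sets were called lower), at a Benjamini-Hochberg adjusted p under 0.05 over all 22626 probe sets tested and at least 2-fold. That is 21.1% of members beside 7.81% of all probe sets called higher in kidney. The median difference was 0.62 on the log2 scale for the members and -0.09 for all probe sets. None of the 12 members of paralogue numbers 1 to 4 was called, against 3 of the 11 of numbers 5 to 8 and 5 of the 15 of numbers 9 to 13. Both Hoxa9 probe sets are among those 5. Cluster c had no call among its 8 members. All differences are on the scale log2(signal + 125), which understates the change of dim genes.

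Hoxa9 (1455626_at), a regulator of blood stem cells and of posterior identity, was the member with the largest difference. Its kidney signal was 17689 with BIIB and 7796 with one-cycle. The next values were 1969 and 802 in embryo and 1801 and 1002 in ovary, and the other 5 tissues lay between 5.9 and 375. The kidney arrays therefore did not overlap with any other, and the difference was 5.07 ± 0.54 (log2, SE; adjusted p = 3e-07). Within BIIB alone it was 5.82 and within one-cycle 4.32. The second Hoxa9 probe set (1421579_at) was also called in kidney, at 2.05 ± 0.53 (adjusted p = 0.0071) from signals of 665 and 2767. The probe sets differed elsewhere: in embryo 1455626_at read 1.53 ± 0.54 (adjusted p = 0.06) and 1421579_at read -0.77 ± 0.53 (adjusted p = 0.4).

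Hoxa10, known for its role in the uterus and the lumbar spine, gave 648 with BIIB and 2051 with one-cycle in kidney. Its highest value elsewhere was 476, in ovary with one-cycle, so again no array overlapped, and the difference was 2.51 ± 0.43 (adjusted p = 0.00014). Hoxa7 gave 1891 and 1784 in kidney, a difference of 2.54 ± 0.50 (adjusted p = 0.00068). Its arrays did overlap, because the BIIB lung array read 1962 while the one-cycle lung array read 294.

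In cluster d, 3 neighbouring genes rose in kidney. Hoxd8 gave 3566 and 8291, against 1576 and 4067 in ovary, 350.2 and 2267 in embryo and at most 285 in the other 5 tissues. The difference was 3.72 ± 0.49 (adjusted p = 5.3e-06). Hoxd9 gave 1294 and 2853 in kidney (2.44 ± 0.41, adjusted p = 0.00012), below its own ovary values. Hoxd10, which patterns the hindlimb and lumbar motor neurons, gave 526 and 1234 in kidney and 336 and 1099.8 in ovary, with at most 224 in any other tissue. Its kidney difference was 2.12 ± 0.40 (adjusted p = 0.00047). From cluster b, Hoxb6 was called at 1.67 ± 0.47 (adjusted p = 0.013) from 571 and 1301.

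The paralogue group that is best known in kidney formation, that of Hoxa11 and Hoxd11, did not pass. Hoxa11 gave 174 with BIIB and 827 with one-cycle in kidney, a difference of 1.03 ± 0.46 (adjusted p = 0.13). Hoxd11 gave 88.2 and 474, a difference of 0.62 ± 0.46 (adjusted p = 0.4). Both were over 500 on at most 1 kidney array. Hoxb7, whose promoter is widely used to mark the collecting duct, gave 189 and 356 and a difference of 0.72 ± 0.37 (adjusted p = 0.2). The spread of the dim members was large beside these differences, and a p that misses the threshold does not show that kidney and the other tissues are alike.

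Of the 8 kidney calls, 4 held under every alternative that tested them and with each array left out: Hoxa9 (1455626_at), Hoxa10, Hoxd8 and Hoxd9. Hoxa10, with a mean tissue signal of 284, was not tested under the filter at a mean signal of 500. Without the one-cycle kidney array, the calls of Hoxa7 (2.04), Hoxd10 (1.69) and the second Hoxa9 probe set (1.41) were lost. The call of Hoxb6 was lost without either kidney array (1.60 and 1.74).

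**Figure D2:**
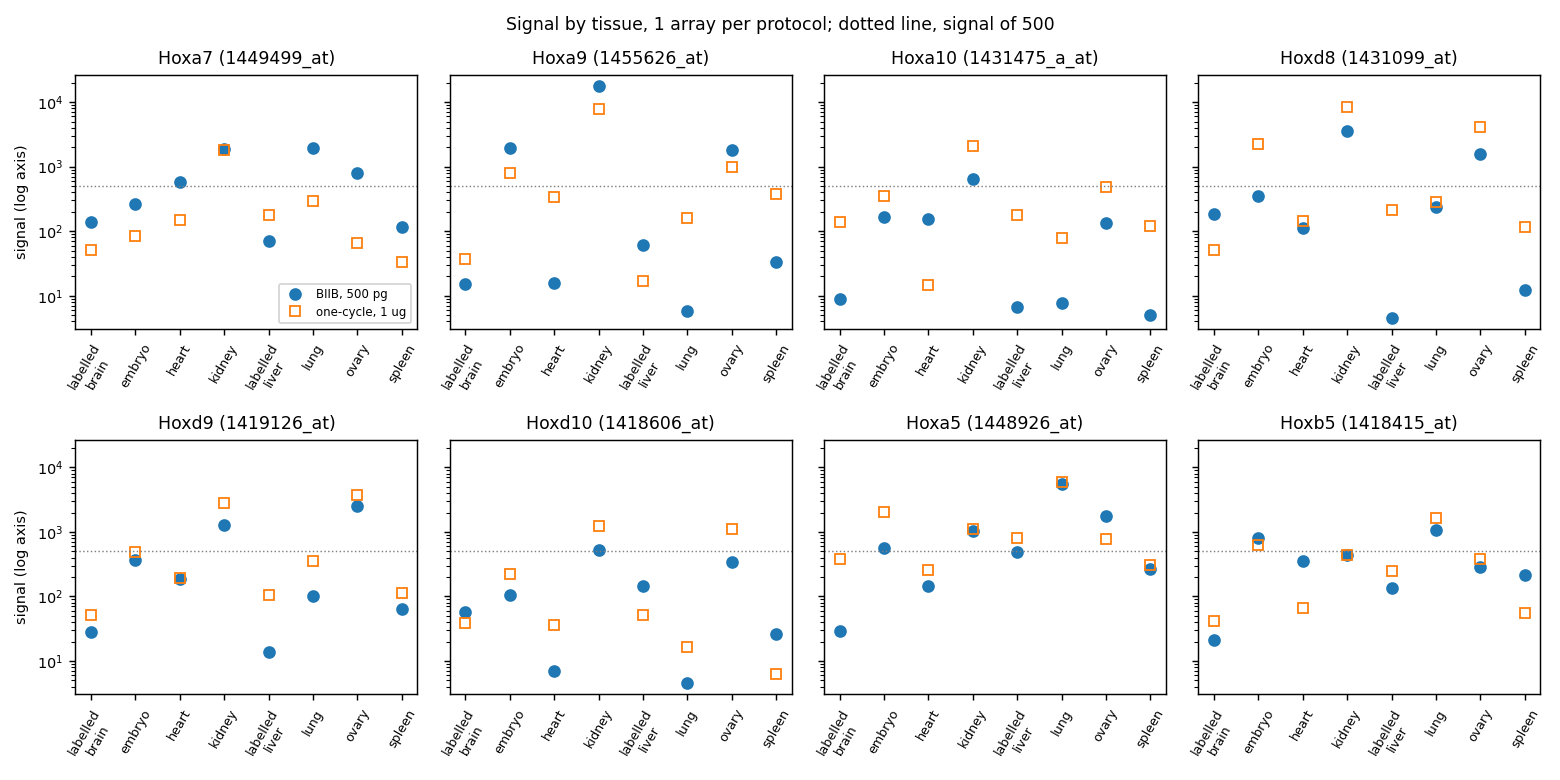
Signal (log axis) of 8 Hox probe sets in the 8 tissues, with the BIIB array from 500 pg as a filled circle, the one-cycle array from 1 ug as an open square, and a dotted line at 500; the 8 were chosen after their values were seen. Kidney stands highest for Hoxa9, Hoxa10 and Hoxd8, ovary for Hoxd9, and lung for Hoxa5 and Hoxb5.

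The windows around the starts of the genes that rose most in kidney and ovary are printed because these members moved together and 2 of them lie side by side in cluster d. RefSeq entries were matched for 19 of the 32 member genes by symbol, giving 21 windows of 250 bases before to 50 after the start, in build GRCm38.p6. Hoxa9 lies at chr6:52227321-52227620 on the minus strand, Hoxd8 at chr2:74704365-74704664 and Hoxd9 at chr2:74697513-74697812, both on the plus strand. Each runs 5′ to 3′ in the direction of the gene, and capitals mark the letters AGGTCA, a motif bound by retinoic acid receptors, on either strand.
Hoxa9: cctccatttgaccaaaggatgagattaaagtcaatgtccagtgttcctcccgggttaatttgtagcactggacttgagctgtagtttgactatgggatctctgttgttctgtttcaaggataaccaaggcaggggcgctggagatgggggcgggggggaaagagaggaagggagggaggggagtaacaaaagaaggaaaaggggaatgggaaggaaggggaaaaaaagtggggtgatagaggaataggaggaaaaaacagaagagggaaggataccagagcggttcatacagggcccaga
Hoxd8: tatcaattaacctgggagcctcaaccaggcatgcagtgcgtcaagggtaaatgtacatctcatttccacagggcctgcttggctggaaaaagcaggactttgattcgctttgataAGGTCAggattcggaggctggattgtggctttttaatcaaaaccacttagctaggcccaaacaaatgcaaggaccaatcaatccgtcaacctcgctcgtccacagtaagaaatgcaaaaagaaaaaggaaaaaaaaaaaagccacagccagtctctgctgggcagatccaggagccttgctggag
Hoxd9: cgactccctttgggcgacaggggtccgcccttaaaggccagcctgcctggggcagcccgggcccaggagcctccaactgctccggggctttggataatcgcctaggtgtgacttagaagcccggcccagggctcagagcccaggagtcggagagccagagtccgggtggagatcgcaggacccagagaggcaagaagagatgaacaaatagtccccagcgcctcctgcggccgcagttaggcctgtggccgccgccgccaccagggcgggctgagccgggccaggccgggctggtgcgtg
AGGTCA occurred once in the Hoxd8 window and in neither of the others. The GC content was 49.7% for Hoxa9, 46.7% for Hoxd8 and 68.3% for Hoxd9, and the CpG counts were 4, 6 and 20. Over the 21 Hox windows the median was 59.3% GC and 15 CpGs, against 52.7% and 7 over all 32851 windows.

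A scan of both strands found AGGTCA in 23.8% of the Hox windows and 16.3% of all windows. The site that Pbx and Hox proteins bind together, TGATNNAT, was in 14.3% of Hox windows and 8.85% of all. TATAAA was in 14.3% and 13.6%. Each motif was counted on its own, whether or not it overlapped another, and no test was made. A match describes letters and not a bound site, and the windows of Hoxa9 and Hoxd9 held none of the 3 motifs.

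In ovary, Hoxd8, Hoxd9 and Hoxd10 of cluster d rose, with Hoxc4 and Hoxc8 of cluster c and Hoxa9 (1455626_at) of cluster a. The fit called 6 of 38 members higher (15.8% of members, 6.68% of all probe sets) and 0 lower (4.08% of all), with a median difference of 0.44 for the members and 0.09 for all probe sets. Hoxd9 was the highest, with 2518 by BIIB and 3675 by one-cycle, above both kidney arrays of the same protocol and against at most 481 in the remaining 6 tissues. The difference was 3.15 ± 0.41 (adjusted p = 1.1e-05), and it was 3.16 within BIIB and 3.15 within one-cycle. Hoxd8 rose by 2.51 ± 0.49 (adjusted p = 0.00099) and Hoxd10 by 1.75 ± 0.40 (adjusted p = 0.0048). Hoxd8, Hoxd9, Hoxd10 and Hoxa9 (1455626_at) were thus the 4 members called in both kidney and ovary. These comparisons share 12 of their arrays as controls.

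Hoxc8, a gene of the thoracic region, rose in ovary. It gave 467 with BIIB and 2081 with one-cycle, against 285 and 499.7 in embryo and 309 and 293 in kidney. The difference was 2.26 ± 0.42 (adjusted p = 0.00075). In kidney it was not called (0.63 ± 0.42, adjusted p = 0.35), and kidney minus ovary was -0.45 within BIIB and -2.40 within one-cycle. Hoxc4 rose by 1.31 ± 0.43 (adjusted p = 0.048) from signals of 322 and 896, and Hoxa9 (1455626_at) by 1.63 ± 0.54 (adjusted p = 0.049). The other Hoxa9 probe set (1421579_at) read -0.08 ± 0.53 in ovary (adjusted p = 0.95), so the ovary call of Hoxa9 rests on 1455626_at alone. The 3 probe sets of Hoxc6 were high in ovary without passing: 1427361_at gave 647 and 1528 (1.34 ± 0.49, adjusted p = 0.075), 1427362_x_at gave 360 and 1580 (0.99 ± 0.43, adjusted p = 0.15), and 1427454_at gave 707 and 138 (0.50 ± 0.46, adjusted p = 0.55). Hoxa10, the gene known from the uterus, gave 133 and 476 and a difference of 0.54 ± 0.43 (adjusted p = 0.47).

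Without the one-cycle ovary array, 1 call was left, that of Hoxd9, and Hoxd8 (2.23), Hoxc8 (1.43) and Hoxd10 (1.12) were lost. The calls of Hoxa9 and Hoxc4 were each lost without any of 11 of the 16 arrays.

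In lung, Hoxa3, Hoxa5, Hoxb4 and Hoxb5 rose. The fit called 4 of 38 members higher (10.5% of members, 8.96% of all probe sets) and 1 lower (5.92% of all), so the count of higher members was near the background. Hoxa5, which the lung needs for branching and for the maturation of its airways, gave 5537 with BIIB and 5843 with one-cycle. Ovary followed with 1787 and 776, embryo with 565 and 2041, and kidney with 1029 and 1101, so no array overlapped with lung. The difference was 3.14 ± 0.45 (adjusted p = 2.5e-05), and it kept its call under every alternative and every left-out array. Its window at chr6:52204538-52204837, minus strand, with 29 CpGs and 61.7% GC, holds AGGTCA close to its end:
Hoxa5: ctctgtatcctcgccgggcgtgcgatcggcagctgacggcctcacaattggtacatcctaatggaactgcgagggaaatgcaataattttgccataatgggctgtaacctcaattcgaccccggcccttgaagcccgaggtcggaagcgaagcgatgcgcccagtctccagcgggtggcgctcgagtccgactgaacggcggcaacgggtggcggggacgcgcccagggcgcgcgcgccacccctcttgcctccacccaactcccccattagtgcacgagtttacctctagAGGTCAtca

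Hoxb5, the cluster b paralogue of Hoxa5 and also known in airway branching, gave 1059 and 1635 in lung. The next tissue was embryo with 815 and 624, and no array overlapped. The difference was 2.00 ± 0.44 (adjusted p = 0.0023), and it was lost without the one-cycle lung array (1.60). Hoxa3, a gene of the pharyngeal arches and thymus, rose by 1.68 ± 0.43 (adjusted p = 0.008) with probe set 1427433_s_at, from 714 and 883. Its other probe set, 1452421_at, gave 390.3 and 176 and read 0.58 ± 0.44 (adjusted p = 0.43). A name ending in _s_at marks probes shared by more than 1 transcript. Hoxb4, known in blood stem cells, likewise rose with 1460379_at (1.32 ± 0.45, adjusted p = 0.046, from 965 and 977), while 1451761_at read 0.38 ± 0.41 (adjusted p = 0.6). The call of Hoxa3 was lost without either lung array, and that of Hoxb4 without any of 10 arrays.

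Hoxa9 (1455626_at) was the 1 member called lower in lung. It gave 5.9 with BIIB and 159 with one-cycle, a difference of -1.73 ± 0.54 (adjusted p = 0.028), and the call was lost without either lung array (-1.17 and -2.28). The mean it was set against includes the high kidney, embryo and ovary arrays. Heart, spleen and the arrays labelled brain and labelled liver were also dim, at 15.2 to 375. Within each protocol, lung minus kidney was -7.09 (BIIB) and -4.80 (one-cycle) for Hoxa9 and 2.29 and 2.28 for Hoxa5. Of the 12 members of paralogue numbers 1 to 4, 2 were called higher in lung and 0 in kidney. Of the 15 of numbers 9 to 13, 0 were called higher in lung and 5 in kidney, both Hoxa9 probe sets among them. Beside them, 8.96% of all probe sets were called higher in lung and 7.81% in kidney, so the counts of 0 and 2 are near the background. These counts were not tested against each other.

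**Figure D3:**
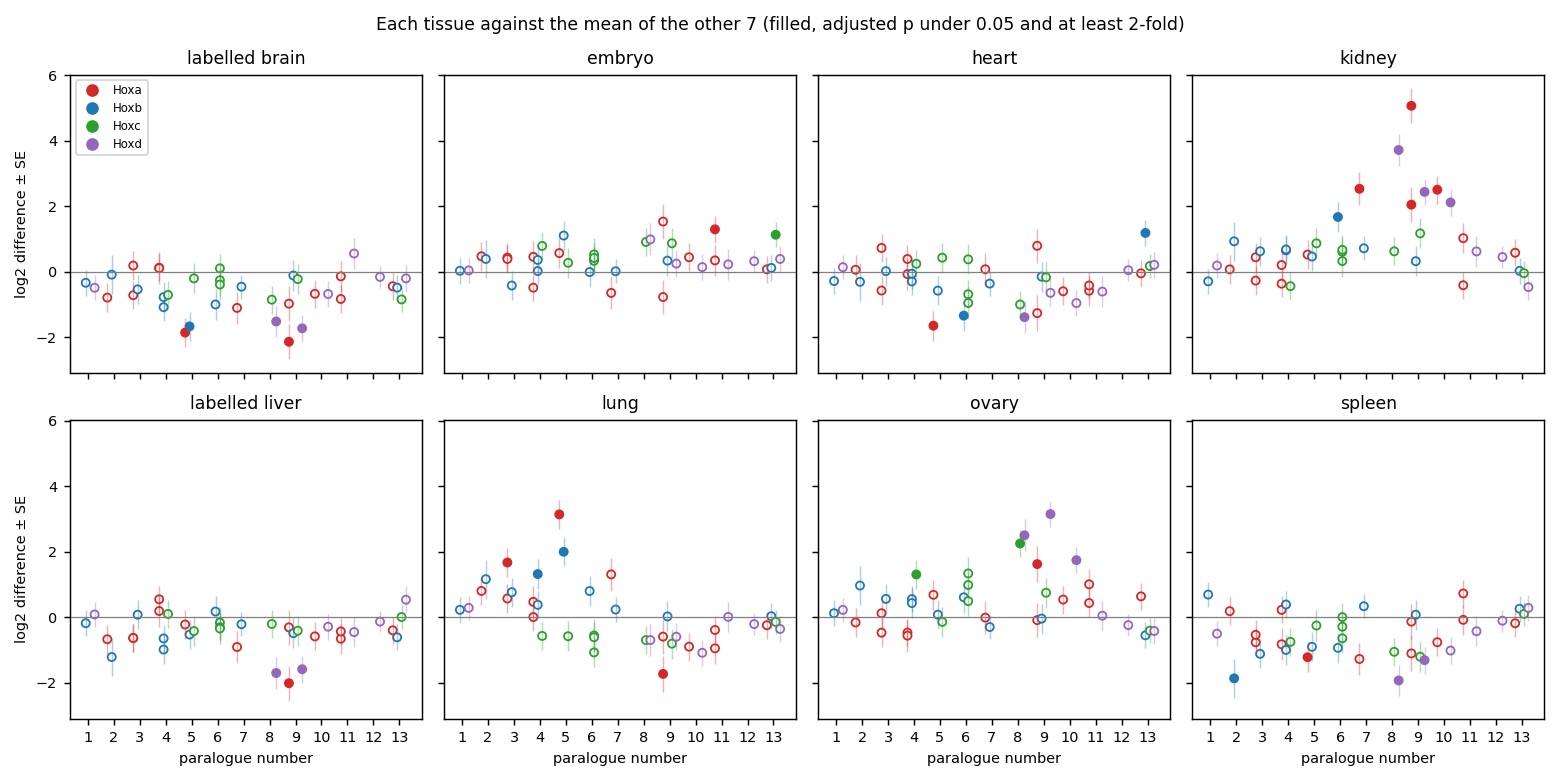
Log2 difference ± SE of each member in each tissue against the mean of the other 7, plotted by paralogue number and coloured by cluster, filled where called; Hoxa11os stands at 11. Kidney has its 8 filled points at paralogue numbers 6 to 10, ovary its 6 at 4 and at 8 to 10, and lung its 4 higher ones at 3 to 5.

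Correlations among 9 members across the 16 tissue arrays are given as a description. Hoxd8 correlated with Hoxd9 (Pearson r = 0.92) and Hoxd10 (r = 0.90), and across clusters with Hoxa10 (r = 0.86) and Hoxa9 (r = 0.83). Hoxa5 correlated with Hoxb5 (r = 0.81) and little with Hoxa9 of its own cluster (r = 0.22). Hoxa7 stood between them, with r = 0.49 to Hoxa9, 0.48 to Hoxd8, 0.50 to Hoxb5 and 0.45 to Hoxa5. The 16 arrays share tissues and 2 protocols, and these probe sets were chosen after their values were seen.

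In the whole embryo, where the clusters are in use, 2 of 38 members were called higher (5.26% of members, 8.41% of all probe sets) and 0 lower (3.8% of all). Of their 4 embryo signals, 1 reached 500. Hoxa11os, transcribed antisense to Hoxa11, gave 413 and 556, a difference of 1.30 ± 0.41 (adjusted p = 0.037). Whether the labeling kept the strands apart is not given in the sources used here. Hoxc13, known from the hair follicle, gave 483 and 278 and rose by 1.13 ± 0.37 (adjusted p = 0.044). Neither call held with a pseudocount of 31.25 or 500, with quantile normalization or without the protocol covariate, and they were lost without any of 6 (Hoxa11os) or 10 (Hoxc13) of the 16 arrays. Of the 38 members, 33 had a difference above 0 in embryo, with a median of 0.36 beside 0.01 for all probe sets. The summed signal of 6 skeletal and mesenchymal markers was 103034 and 245772 in embryo and 1041 to 16274 on the other arrays. Of these 6 markers, 3 were highest on both embryo arrays. The part of that sum in these values was not tested.

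In heart, spleen and the arrays labelled brain and labelled liver, the calls were nearly all lower ones, at shares no higher than those of all probe sets. In heart, 3 members were called lower (7.89% of members, 7.97% of all probe sets) and 1 higher (8.17% of all). Hoxa5 was lower by -1.64 ± 0.45 (adjusted p = 0.012), and Hoxd8 and Hoxb6 were also called lower. Hoxb13, a gene of the prostate and tail end, was called higher at 1.19 ± 0.39 (adjusted p = 0.036) with dim signals of 370 and 273. Next to it the BIIB spleen array read 349 and the one-cycle spleen array 10.3. The 4 heart calls were each lost without either heart array, those of Hoxb6 and Hoxd8 also without any of 12 of the 16 arrays, and that of Hoxb13 without any of 5.

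In spleen, 4 members were called lower (10.5% of members, 13.4% of all probe sets) and 0 higher (11.5% of all). Hoxd8 was at 12.1 and 116 (-1.93 ± 0.49, adjusted p = 0.0041). Hoxb2 was at 27.8 and 28.8 (-1.86 ± 0.59, adjusted p = 0.02), and Hoxa5 and Hoxd9 were also called. The call of Hoxb2 was lost without the one-cycle spleen array (-1.08), those of Hoxd8 and Hoxd9 without either spleen array, and that of Hoxa5 without any of 11 arrays. On the arrays labelled brain, 5 members were called lower (13.2% of members, 16.4% of all) and 0 higher (7.96% of all). Hoxa9 was at 15.2 and 36.5 there (-2.13 ± 0.54, adjusted p = 0.0043), and Hoxa5, Hoxb5, Hoxd8 and Hoxd9 completed the list. Each of these 5 calls was lost without at least 1 of the arrays labelled brain. On the arrays labelled liver, Hoxa9, Hoxd8 and Hoxd9 were called lower (7.89% of members, 13.3% of all) and 0 members higher (12.5% of all), where 25.8% of all probe sets were called in either direction. Hoxa9 was at 60.8 and 16.7 there (-2.01 ± 0.54, adjusted p = 0.0063), and each of these 3 calls was lost without at least 1 of the arrays labelled liver.

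Such shares of lower calls are no result about the members. Of the 16 lower calls in the tissues, 13 belong to Hoxa5, Hoxa9, Hoxd8 and Hoxd9, which were also called higher in kidney, ovary or lung. All 37 tissue calls had the same sign within BIIB and within one-cycle. The fitted difference is the mean of the BIIB and one-cycle differences. Calling on that mean favours a shared sign, so the shared sign is no separate check of the calls. The members called in no tissue were 20 of the 38.

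The partners of Hox proteins were called in some tissues and not in others. Of 9 cofactor genes listed, 8 were measured. In kidney, embryo and ovary 0 were called in either direction (15.9%, 12.2% and 10.8% of all probe sets). In lung, where 2 of 8 were called higher (8.96% of all), Meis1 rose by 1.52 ± 0.48 (adjusted p = 0.03) and Pbx3 by 1.36 ± 0.45 (adjusted p = 0.037). Meis2 was higher on the arrays labelled liver (2.07 ± 0.38, adjusted p = 0.00018), the 1 cofactor called there (12.5% of all higher). The lower calls were Pbx3 and Meis2 on the arrays labelled brain (-1.70 and -1.81, adjusted p = 0.0058 and 0.00081), Pbx3 and Pknox1 in heart (-1.48 and -1.13, adjusted p = 0.022 and 0.039) and Meis2 in spleen (-1.83, adjusted p = 0.00074). Of all probe sets, 16.4% were called lower on the arrays labelled brain, 7.97% in heart and 13.4% in spleen. The difference in count between kidney and other tissues was not tested.

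Of 25 upstream regulators, 23 were measured. In kidney, 1 was called: Aldh1a2, which makes retinoic acid, was lower (-1.46 ± 0.45, adjusted p = 0.023, 8.09% of all probe sets lower). In ovary, 4 were higher (6.68% of all probe sets) and 0 lower (4.08% of all). Aldh1a2 rose there by 2.88 ± 0.45 (adjusted p = 1e-04) and Cyp26a1, which breaks retinoic acid down, by 2.64 ± 0.36 (adjusted p = 2e-05). Kmt2a, a Trithorax methyltransferase, rose by 1.20 ± 0.37 (adjusted p = 0.031) and Rnf2, a Polycomb ubiquitin ligase, by 1.04 ± 0.25 (adjusted p = 0.0058). In lung the retinoic acid receptor Rarg rose by 1.53 ± 0.40 (adjusted p = 0.0083) and the Polycomb gene Phc2 by 1.17 ± 0.26 (adjusted p = 0.0021). In embryo Cdx2 rose by 2.26 ± 0.42 (adjusted p = 0.00053) and Ezh2, the Polycomb methyltransferase, by 1.11 ± 0.36 (adjusted p = 0.042). Lung had 2 higher (8.96% of all) and 0 lower (5.92%), and embryo 2 (8.41%) and 0 (3.8%). Heart had 2 higher (8.17% of all) and 0 lower (7.97%), and spleen 4 (11.5%) and 2 (13.4%). The arrays labelled brain had 1 higher (7.96% of all) and 5 lower (16.4%), and those labelled liver 2 (12.5%) and 4 (13.3%). Ezh2 was also higher in spleen (3.21 ± 0.36, adjusted p = 5.8e-07) and lower on the arrays labelled liver (-2.28 ± 0.36, adjusted p = 3.7e-05).

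Between BIIB and one-cycle, paired by tissue, 1 member was higher with BIIB (2.63% of members, 8.94% of all probe sets) and 1 lower (20.3% of all). That count of 2 depends on the settings. It was 11 with a pseudocount of 31.25 or with no fold minimum and 0 with a pseudocount of 500. In the limma fit, 14 members passed an unadjusted p under 0.05, 11 of them lower with BIIB. The median difference was -0.34 for the members and -0.28 for all probe sets, so lower values with BIIB were not particular to the members. Hoxb2, a hindbrain gene, was lower with BIIB by -1.37 ± 0.39 (adjusted p = 0.0059) and in 7 of 8 tissues. In kidney it read 98.0 with BIIB and 2996 with one-cycle, in lung 371 and 1738, and in ovary 298 and 1600.1. Its call was lost with a pseudocount of 500, with quantile normalization and without the tissue covariate. A Hoxc6 probe set (1427454_at) was higher with BIIB in all 8 tissues, by 1.23 ± 0.31 (adjusted p = 0.002, lost with a pseudocount of 500), while another (1427362_x_at) was lower with BIIB in all 8 (-0.90 ± 0.29, adjusted p = 0.012, under 2-fold). Probe sets of 1 gene thus differed in opposite directions between the protocols.

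In universal RNA, some members differed from the mean of the tissues. With the same 2 protocols and inputs, 7 of 38 members were called higher than the mean of the 8 tissues (18.4% of members, 10.4% of all probe sets) and 1 lower (10.6% of all). Hoxa9 (1455626_at) rose most, by 2.51 ± 0.27 (adjusted p = 1e-08). Its signal was 2005 ± 283 with one-cycle (SD, n = 4) and 4508 ± 598 with BIIB from 500 pg (SD, n = 4), so neither set reached the kidney arrays of its protocol. Hoxd8 rose by 1.46 ± 0.23 (adjusted p = 4.4e-06), with 2207 ± 373 by one-cycle and 1007 ± 242 by BIIB, and Hoxa10 by 1.27 ± 0.25 (adjusted p = 0.00012).

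Hoxc4, Hoxc8 and Hoxc9 of cluster c also rose, by 1.39 ± 0.24 (adjusted p = 1.6e-05), 1.39 ± 0.22 (adjusted p = 5.9e-06) and 1.43 ± 0.25 (adjusted p = 2.4e-05). For Hoxc4, all 4 BIIB arrays and 3 of 4 one-cycle arrays were above every tissue of the same protocol. Hoxc9 was above them on 3 of 4 arrays by each protocol. For Hoxb13 this held on 4 BIIB arrays and 1 one-cycle array. For Hoxa10 and for Hoxc8 it held on 1 BIIB array and 0 one-cycle arrays. For Hoxa9 and Hoxd8 it held on 0 arrays by either protocol. Hoxb13 rose by 1.46 ± 0.25 (adjusted p = 2e-05), more within BIIB (1.98) than within one-cycle (0.94), and its call was lost on the one-cycle arrays alone. The calls of Hoxa10 and Hoxc4 were lost on the BIIB arrays alone.

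The member called lower in universal RNA was Hoxb5, by -1.24 ± 0.23 (adjusted p = 3.7e-05). It read 32.9 to 62.3 on the 4 one-cycle arrays and 21.8 to 31.5 on 3 of the 4 BIIB arrays, with 279.8 on the other. With a pseudocount 4 times as large, Hoxa9 was the 1 universal call of the 8 that was left. All 8 held with any 1 of the 24 arrays left out.

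Over all 58 universal arrays the kits gave different pictures of single members, which the design did not test. Hoxd9 read 688 to 1005 with one-cycle and 453 to 977 with two-cycle from 5 ng or more. With Ovation from 5 ng or more it read 9208 to 15579.8 on 6 arrays, and RiboAmp HS (264 to 1089) and BIIB from 5 ng (186 to 344) lay far lower. Every Ovation array from 5 ng or more was above every array of the other kits at those inputs. Hoxc4 read 823 to 1102 with one-cycle, 1324 to 3598 with Ovation from 5 ng or more and 394 to 954 with BIIB from 5 ng. Hoxc8 read 837 to 1082, 1844 to 4135 and 395 to 990.2 in the same order. Hoxa9 ran the other way, with 1597 to 2234 by one-cycle and 4333 to 6685 by BIIB from 5 ng. The two-cycle, Ovation and RiboAmp HS kits had 2 arrays per input, and no test was made between kits.

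**Figure D4:**
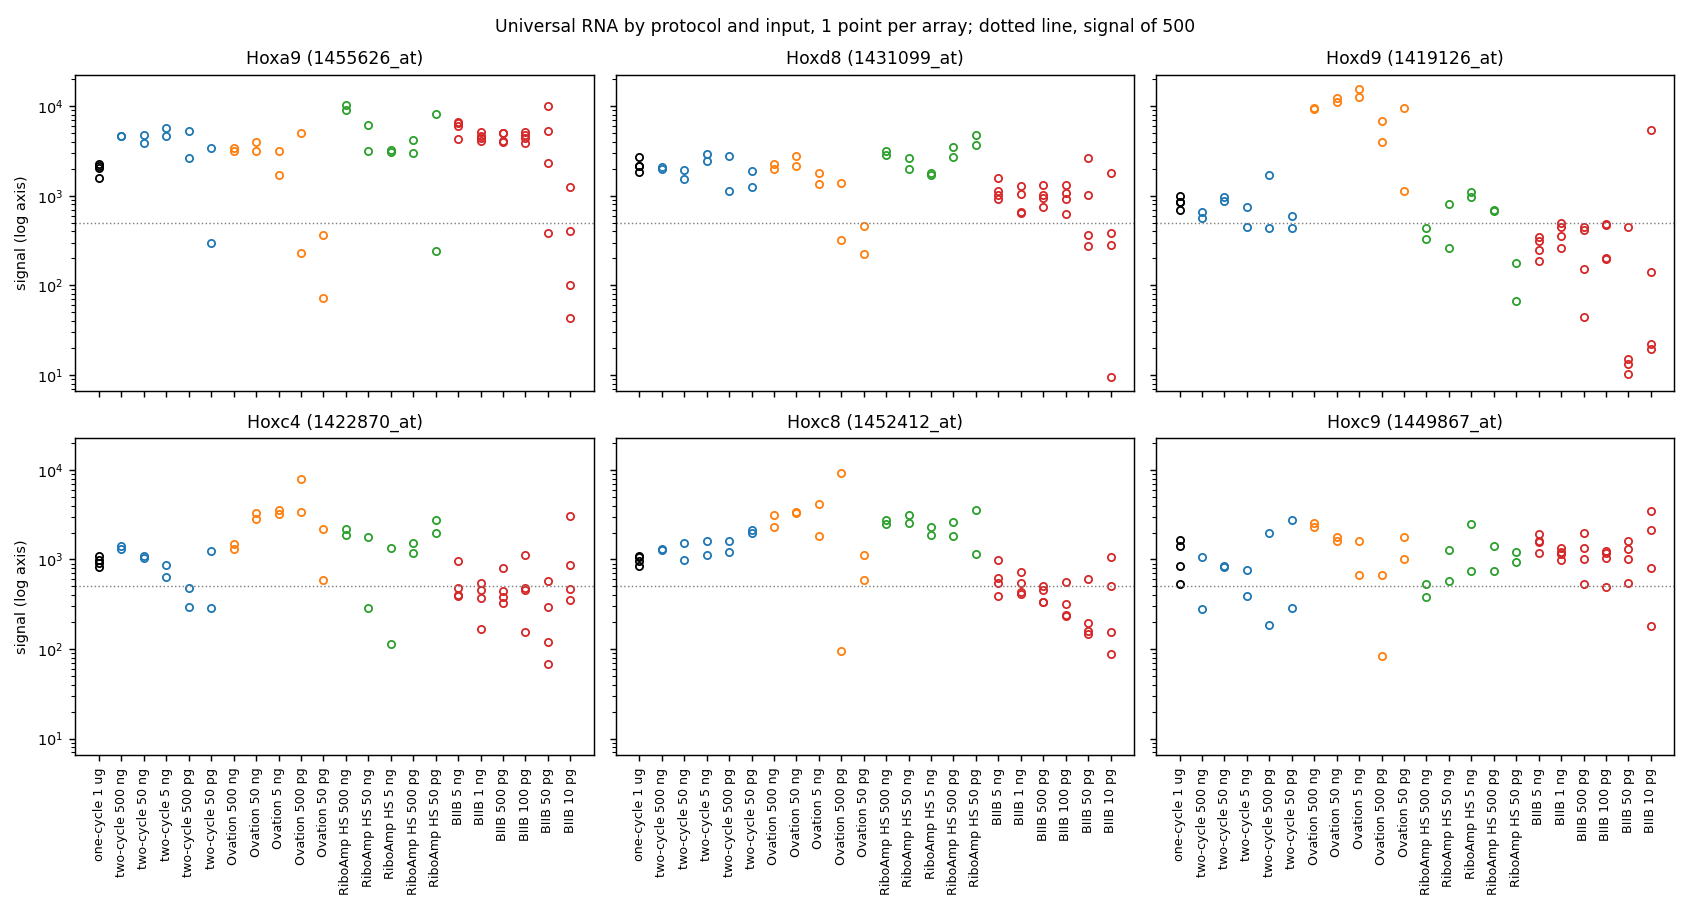
Signal (log axis) of 6 Hox probe sets in universal RNA, 1 point per array, by protocol and input, with a dotted line at 500. Hoxd9 stands at 9208 or above with Ovation from 5 ng or more, and the BIIB points spread widely at 50 pg and 10 pg.

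The number of members at 500 or above on all 4 BIIB arrays fell with the input, as did the share of all probe sets. At 5 ng, 1 ng and 500 pg, 3 members (Hoxa9, Hoxc9 and Hoxd8) met that mark, beside 46.0%, 44.1% and 43.1% of all probe sets. At 100 pg it was 2 members (36.6% of all), at 50 pg 1, Hoxc9 (28.8%), and at 10 pg 0 (17.6%). From 1 ug by one-cycle it was 13 (55.4%). On single BIIB arrays the number of members at that mark did not fall in this way. It was 6 to 11 per array at 5 ng, 4 to 9 at 500 pg, 6 to 10 at 50 pg and 5 to 13 at 10 pg. Between 50 pg and 5 ng, 0 of 38 members were called by limma (0.331% of all probe sets, 0.0221% higher), and 1 passed an unadjusted p under 0.05. Between 10 pg and 5 ng, 1 member fell (2.63% of members, 6.25% of all) and 0 rose (1.01% of all), where 7.26% of all were called in either direction. That member was Hoxa9, which read 4333, 6407, 5964 and 6685 at 5 ng and 101, 407, 1246 and 42.9 at 10 pg. The groups did not overlap, and the difference was -3.85 ± 0.73 (adjusted p = 0.0097). At 50 pg the same probe set read 2322, 379.8, 5255 and 10017, a wider range than at 5 ng on both sides.

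In sorted lymphocytes, 4 members were at 500 or above on at least 15 of the 18 arrays: 2 probe sets of Hoxc6, Hoxc5 and Hoxb9. The sort itself was clear: the summed T markers were 125028 to 158499 on the unmixed T arrays and 1825 to 4168 on the unmixed B arrays, and the summed B markers 269346 to 430454 on B and 1621 to 3584 on T. Summed myeloid markers were 1208 to 5245. Each array had 11 to 22 of the 38 members at 500 or above, beside 60.1% to 67.8% of all probe sets, and 0 members were so on all 18 arrays, where 14.5% of all probe sets were. The 4 members at that mark on 15 or more arrays are 10.5% of members, beside 34.4% of all probe sets.

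Hoxc6 (1427361_at) reached 500 on 17 of 18 arrays, with a lowest value of 415, a median of 1628 and a highest of 5283. Its unmixed T arrays of 100 cells read 415 and 513 and its unmixed B arrays 2156 and 1455. Hoxc6 (1427454_at) reached it on 16 arrays, with a median of 1558, and ran the other way, with 1778 and 3200.0 on T and 630 and 289.5 on B. Probe sets of 1 gene thus lay in opposite orders between T and B at 100 cells, and neither difference was called. Both orders were reversed on the unmixed arrays of 500 cells, which have no replicate. There 1427361_at read 1827 on T and 1488 on B, and 1427454_at read 1382 on T and 1677 on B. Hoxc5 reached 500 on 15 arrays (99.6 to 2321, median 1476), with 1166 and 1279 on the unmixed T arrays and 2285 and 2321 on the B arrays. In the tissues it read 19.8 to 509.8. Hoxb9 also reached it on 15 (76.8 to 3056, median 1700.4), with 990 and 1827 on T and 1827 and 2471 on B, against 18.7 to 329 in the tissues. Hoxc5 was not high in every array of like cells, since the B array of 500 cells read 99.6. The median over all probe sets was 776 to 1170 on the lymphocyte arrays, beside 431 to 970.1 on the tissue arrays, and its part in these values was not tested.

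Between the unmixed B and T arrays of 100 cells, 2 against 2, limma called 0 of 38 members (0.402% of all probe sets), and 1 passed an unadjusted p under 0.05, a Hoxc6 probe set (1427362_x_at, 2.96 ± 1.33, adjusted p = 0.77).

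Hoxa9, which read 17689 in kidney by the same protocol, had a median of 122 over the 18 lymphocyte arrays and a range from 35.8 to 552. Hoxd8 had a median of 118 (24.9 to 1543), Hoxd9 140.0 (23.3 to 1337) and Hoxa5 198 (50.9 to 816). For some members the 2 arrays of the same cells lay far apart. Hoxd10 read 951 and 30.6 on the 2 unmixed T arrays and 347 and 626 on the unmixed B arrays. The SD of a member over the 18 arrays had a median of 1.12 on the log2 scale, beside 1.17 for all probe sets. The 500-cell arrays were 1 per ratio and gave Hoxa9 at 73.8 for T and 148 for B, with no replicate.

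**Figure D5:**
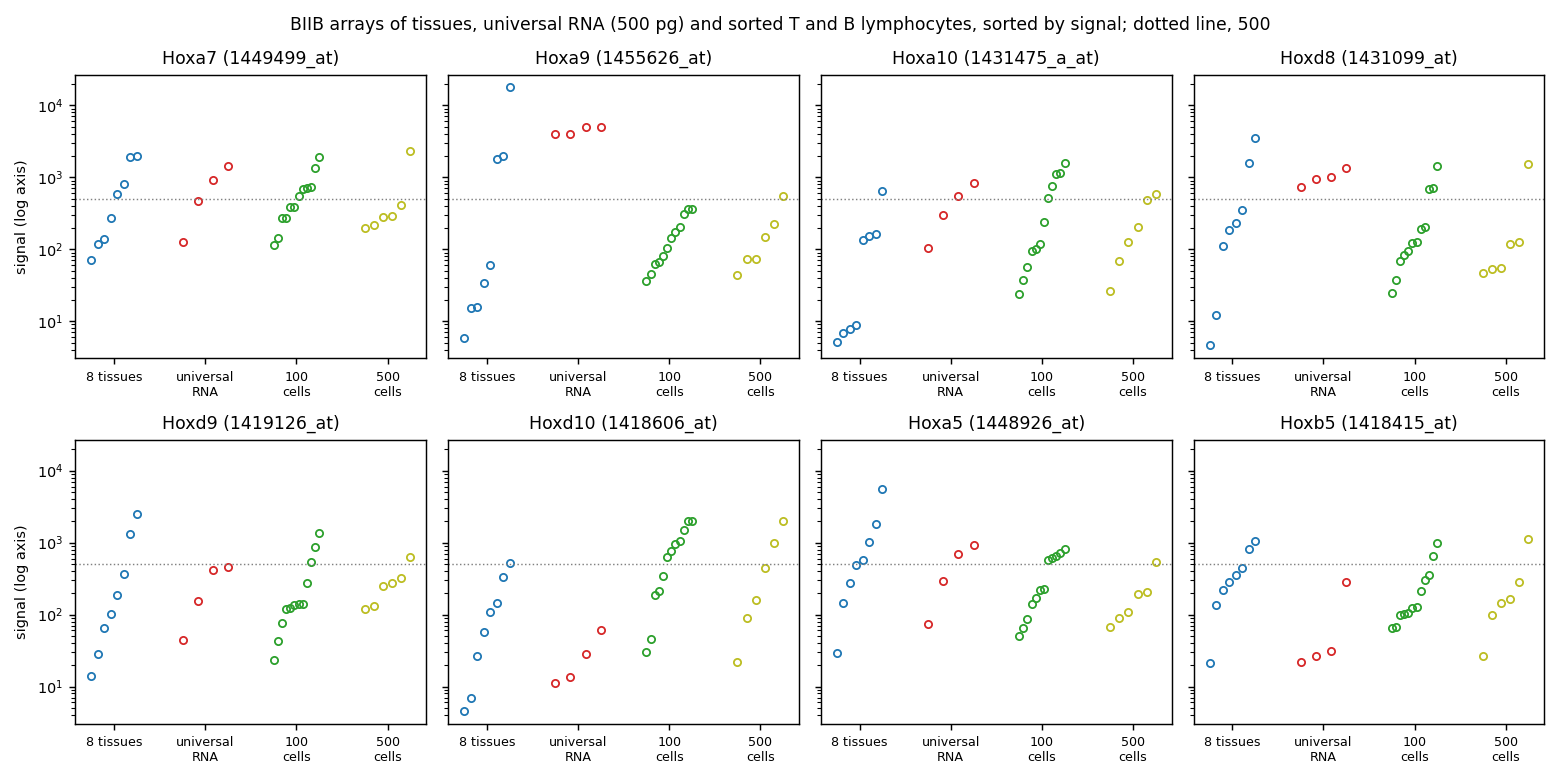
Signal (log axis) of 8 Hox probe sets on BIIB arrays, sorted within each set: 8 tissues and 4 universal arrays from 500 pg, and lymphocyte arrays of 100 cells (12) and 500 cells (6), dotted line at 500. The lymphocyte points of Hoxa9 run from 35.8 to 552, under its embryo, kidney, ovary and universal points.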

How the data were processed

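Per the labels, RNA was labeled as biotinylated cRNA or cDNA and hybridised to mouse Affymetrix arrays. The authors deposited linear intensity values made with MAS5, per the submitters' processing notes; its version, settings and detection calls are not given in the sources used here. Probe sets were named from GEO's platform annotation, in which 20380 of 22690 have 1 symbol and 691 several, and the 64 control probe sets were left out. Each array was scaled to the common mean of signals trimmed by 2% at each end, a pseudocount of 125 (5% of that mean) was added, and log2 was taken. Tests used limma 3.58.1 (lmFit, eBayes with trend, two-sided; R 4.3.3) with no filter on dim signals, because a filter keeps tissue-restricted genes by their change. The tissue fit had tissue and protocol terms and 7 residual degrees of freedom. In all, 13 comparisons were made, each adjusted by Benjamini-Hochberg over 22626 probe sets. The tests were first tried on simulated data. Alternatives were the pseudocount, a filter at a mean signal of 500, quantile normalization, no trend, no fold minimum, other covariates or arrays, a block for the replicate number, and each array left out.

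The members, gene lists and settings were chosen with earlier results of these data known. Named were the members called, the brightest of each cluster, and every probe set of a gene with several. The motifs, the windows printed, the probe sets in the correlations and figures, and Hoxa11, Hoxd11, Hoxb7, Hoxa10 in ovary, and in lymphocytes Hoxd10 and the mark of 15 arrays were chosen after values were seen. Same-numbered arrays did not deviate together (correlations of -0.048 to 0.084 in the universal groups and 0.022 in lymphocytes), so replicate numbers were not taken to pair arrays. No 2 arrays held identical values. RAW267 cells (11 arrays) were not used.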

Additional observations from a re-analysis of the deposited data

Results flagged for a closer look

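Single arrays that stood far from the other 3 of their group were sought for 12 Hox probe sets in the universal RNA groups of 4 arrays (one-cycle, and BIIB at 5 ng, 500 pg, 50 pg and 10 pg). Of 60 groups, 6 held one, where chance gives about 1 in 20. The same arrays serve all 12 probe sets, so the 60 groups are not independent. All 6 were BIIB arrays, as were all groups searched except those of one-cycle. At 500 pg, Hoxb5 read 279.8 on replicate 2 and 21.8 to 31.5 on the others. At 50 pg, replicate 3 stood apart for 3 genes: Hoxb5 read 361 there and 16.5 to 21.6 on the others, Hoxc8 read 606 against 145 to 193, and Hoxa10 read 6.9 on that array. Hoxd9 read 442 on replicate 4 at 50 pg, against 10.3 to 15.0 on the others. At 10 pg, Hoxd9 read 5422 on replicate 2, against 19.2 to 141 on the others, a signal above that of every BIIB array of universal RNA with more input.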

How the results depend on the processing

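Of the 48 member calls in all comparisons, 8 held under every alternative that tested them and with every array left out. They were Hoxa9, Hoxa10, Hoxd8 and Hoxd9 in kidney, Hoxd9 in ovary, Hoxa5 in lung, and Hoxa9 in universal RNA and at 10 pg. Hoxa10 was not tested under the filter on mean signal. Recomputed, the 48 calls kept their direction and side of the threshold in 960 values, fell short of the threshold in 188 and turned in 0. Counts of members called moved by more than 1.5 times as follows, and the cause was not tested. With a pseudocount of 31.25 they were 0 in embryo, 2 in heart and 11 between protocols. With one of 500 they were 3 on the arrays labelled brain, 0 in embryo, 1 in heart, 3 in lung, 3 in ovary, 1 in spleen, 0 between protocols and 1 in universal RNA. With the filter on mean signal, which left fewer members to test, they were 1 in embryo, 2 in heart, 4 in kidney, 2 in lung, 3 in ovary, 1 between protocols and 3 in universal RNA. Quantile normalization gave 0 in embryo. With no fold minimum they were 11 between protocols and 13 in universal RNA. Without the protocol covariate they were 0 in embryo, 0 in heart, 2 in lung, 3 in ovary and 0 in spleen, and without the tissue covariate 1 between protocols.

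With each array left out in turn, the counts ran from 3 to 6 labelled brain, 0 to 3 in embryo, 0 to 4 in heart, 4 to 9 in kidney, 1 to 4 labelled liver, 1 to 6 in lung, 1 to 6 in ovary, 0 to 6 in spleen, 2 to 5 between protocols and 8 to 9 in universal RNA; they stayed at 0 between B and T cells, 0 at 50 pg and 1 at 10 pg. The lone array left in a tissue was then assumed to vary like the other tissues. With the replicate number as a block, 0 members were called between B and T cells, 0 at 50 pg and 1 at 10 pg (Hoxa9, -3.85), as without it. Quantile normalization shifted the overall median difference from -0.30 to -0.10 on the arrays labelled brain, from 0.01 to -0.11 in embryo, from 0.09 to -0.02 in ovary, from -0.28 to 0.01 between protocols, from -0.19 to 0.07 at 50 pg and from -0.27 to 0.14 at 10 pg.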
